A study of Mus musculus with 4 samples.

Results

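Tmem176a, Serpinb1a, Sdc1, Blk, Tmem176b, Kcnk1, Aqp3 and Cd163l1 are genes reported to mark T cells that make interleukin 17, above all gamma-delta T cells, and they were chosen by symbol from the expression table as markers that are not cytokines, cytokine receptors or transcription factors. All 8 were found among the 17454 genes of the table, each in 1 row. In RefSeq on GRCm38.p6 they lie on chromosome 4 (Aqp3, chr4:41092724-41098183), 6 (Tmem176a and Tmem176b, side by side), 7 (Cd163l1, chr7:140197218-140231145), 8 (Kcnk1, chr8:125993655-126030685), 12 (Sdc1, chr12:8771396-8793716), 13 (Serpinb1a, chr13:32842092-32853206) and 14 (Blk, chr14:63372837-63417187). The libraries came from double negative T cells of the liver of adult C57BL/6 mice, which carry CD45 and CD3 on their surface and lack NK1.1, CD4 and CD8, and which had been sorted as live by exclusion of 7-AAD. One pair of libraries came from animals fed a methionine-choline deficient diet, a regime that produces fatty, inflamed liver, and the other pair from animals fed a normal diet, with n = 2 for each. Strain, tissue and sort were the same for both diets. The labels give neither the length of feeding nor whether the replicates are separate or pooled animals, so any p-value speaks only to the spread among these samples, which may be technical. The 8 genes were picked with their difference between the diets already known, so that difference is given below as a description and is no test of them.

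T cells that make interleukin 17 acquire that capacity early, many of them in the thymus, and settle in barrier tissues and in the liver, where they answer interleukin 1 and interleukin 23 with cytokine release. Alongside the cytokines they carry a recurring set of other gene products. Blk is a kinase of the Src family that works below antigen receptors and is best known from B cells. Sdc1 is a heparan sulfate proteoglycan of the cell surface, used to recognise plasma cells and also present on hepatocytes. Cd163l1 belongs to the scavenger receptor cysteine-rich proteins, Kcnk1 is a two-pore potassium channel, Aqp3 a channel for water and glycerol, Tmem176a and Tmem176b are membrane proteins of the MS4A-like group, and Serpinb1a is an intracellular inhibitor of serine proteases.

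Each of the 8 genes was higher in both deficient diet libraries than in either normal diet library, a separation in that direction seen in 30.7% of the 10423 genes tested. Their levels are in FPKM, which divides fragments by transcript length and library size, so they can be compared between genes. Summed over the 8 genes they came to 1480 and 1817 FPKM on deficient diet, against 248.9 and 334.8 FPKM on normal diet. That was 0.396% and 0.473% of all FPKM on deficient diet and 0.0639% and 0.0904% on normal diet. In bulk RNA, more cells of a type and more RNA per cell cannot be told apart. In limma, fitted to log2(FPKM + 1) of all 10423 genes that reached 1 FPKM in at least 2 libraries, 7 of the 8 had a Benjamini-Hochberg adjusted p under 0.05 as higher. The share of all tested genes called higher was 1.22%, and since the genes were picked on this contrast nothing is read from the difference. Cd163l1 was the one not called. The count of 7 was also 7 without normal diet replicate 2, and it was 0 when any of the other 3 libraries was left out and 0 with no filter on low values. In none of those fits did limma call any gene, and 2029, 1337 and 1670 genes reached an unadjusted p below 0.05 in the fits without deficient diet replicate 1, deficient diet replicate 2 and normal diet replicate 1, in that order.

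Of the signalling and surface proteins, Blk had 206.2 and 264.8 FPKM on deficient diet, against 28.8 and 53.9 FPKM on normal diet. The ratio of its means was 5.69, and the log2 difference was 2.54 ± 0.33 (SE, n = 2 per diet, as for all members). Its deficient diet libraries lay 0.36 log2 units apart and its normal diet libraries 0.88, with replicate 2 the higher of the pair on each diet. Sdc1 was measured at 338.6 and 327.9 FPKM on deficient diet and at 49.9 and 63.5 FPKM on normal diet, a ratio of means of 5.88 and a log2 difference of 2.54 ± 0.17. It was among the steadiest of the 8, with deficient diet libraries 0.046 log2 units apart. Cd163l1 was the lowest and the least steady, at 11.3 and 5.69 FPKM on deficient diet and 0.916 and 3.88 FPKM on normal diet. The diets did not overlap, but the lowest deficient diet library exceeded the highest normal diet library by a factor of 1.47, where the other 7 genes had factors from 3.82 to 5.17. Its log2 difference was 1.57 ± 0.56, and it was 0.89 when normal diet replicate 1 was left out, 2.24 when normal diet replicate 2 was, and 0.86 with a pseudocount of 5.

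The promoter of Sdc1 is shown because 3 copies of the GC box fall in it, a letter run that the factor SP1 is known to bind, and that of Aqp3 because it holds both a GC box and a TATA box. Sequences are from RefSeq on GRCm38.p6, 250 bases before to 50 after the annotated start, 5′ to 3′ on the strand of the gene, with the motif letters in capitals.
Sdc1, chr12:8771146-8771445, plus strand: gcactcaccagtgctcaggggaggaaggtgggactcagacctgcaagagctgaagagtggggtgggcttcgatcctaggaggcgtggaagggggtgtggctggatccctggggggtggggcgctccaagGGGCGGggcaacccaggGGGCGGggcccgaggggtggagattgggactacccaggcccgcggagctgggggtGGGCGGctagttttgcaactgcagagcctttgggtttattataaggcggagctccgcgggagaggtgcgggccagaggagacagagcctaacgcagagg
Aqp3, chr4:41098134-41098433, minus strand: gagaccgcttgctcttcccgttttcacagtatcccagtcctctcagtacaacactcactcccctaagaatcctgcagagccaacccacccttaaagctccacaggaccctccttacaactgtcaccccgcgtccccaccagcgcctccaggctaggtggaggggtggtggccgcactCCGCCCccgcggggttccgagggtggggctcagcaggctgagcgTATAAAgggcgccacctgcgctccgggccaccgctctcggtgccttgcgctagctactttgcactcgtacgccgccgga
In the Sdc1 window the GC boxes start at -121, -104 and -49 from the start site. In the Aqp3 window the TATA box starts at -29 and the GC box, on the other strand, at -73.

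Among the channels, Kcnk1 stood at 63.8 and 65.4 FPKM on deficient diet and at 13.5 and 11.9 FPKM on normal diet. With a log2 difference of 2.27 ± 0.16 and libraries that differed by at most 0.17 log2 units within a diet, it had the smallest standard error of the 8. It was also the one gene of the 8 that was higher in replicate 1 than in replicate 2 of the normal diet. Aqp3 was lower in level, with 42.6 and 48.9 FPKM on deficient diet against 6.10 and 10.9 FPKM on normal diet, a ratio of means of 5.37 and a log2 difference of 2.34 ± 0.29.

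Tmem176a, the most abundant of the 8 in both diets by mean level, had 372.2 and 491.5 FPKM on deficient diet and 68.7 and 88.5 FPKM on normal diet, a log2 difference of 2.44 ± 0.21. Its neighbour Tmem176b had 136.3 and 173.6 FPKM on deficient diet and 28.7 and 32.3 FPKM on normal diet, a log2 difference of 2.30 ± 0.18. The 2 genes kept nearly the same proportion to each other within a library. The ratio of Tmem176a to Tmem176b was 2.73 and 2.83 in the deficient diet libraries and 2.39 and 2.74 in the normal diet libraries. They lie head to head on chromosome 6 and share the DNA between their start sites, which is why their windows are printed. In the first, capitals mark the 208 bases (chr6:48841325-48841532) that also fall in the window of a Tmem176b start 109 bases away on the opposite strand. In the second, the window of another Tmem176b start, capitals mark CTTTGAT, a letter run bound by TCF and related SOX factors.
Tmem176a, chr6:48841233-48841532, plus strand: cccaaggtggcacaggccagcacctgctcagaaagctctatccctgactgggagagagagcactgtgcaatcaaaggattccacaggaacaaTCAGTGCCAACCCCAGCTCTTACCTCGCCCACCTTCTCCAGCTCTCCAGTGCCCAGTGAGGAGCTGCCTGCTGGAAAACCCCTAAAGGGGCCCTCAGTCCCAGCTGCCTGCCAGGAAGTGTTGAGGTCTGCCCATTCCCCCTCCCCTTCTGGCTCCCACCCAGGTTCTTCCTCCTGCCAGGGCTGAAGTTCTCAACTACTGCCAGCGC
Tmem176b, chr6:48841088-48841387, minus strand: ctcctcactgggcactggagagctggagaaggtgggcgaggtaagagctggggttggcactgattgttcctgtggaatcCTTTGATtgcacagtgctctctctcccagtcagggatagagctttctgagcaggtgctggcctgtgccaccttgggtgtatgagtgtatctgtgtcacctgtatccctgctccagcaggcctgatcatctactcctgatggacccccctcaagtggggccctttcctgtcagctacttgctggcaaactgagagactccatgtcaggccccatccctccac
The same CTTTGAT copy lies on the other strand of the Tmem176a window, at -181 from its start. RefSeq's full span of Tmem176b (chr6:48833811-48845948) covers that of Tmem176a (chr6:48841483-48845364), and the sources used here do not say whether fragments were counted by strand, so fragments from the overlap cannot be told apart and the ratio of the pair is uncertain. In the longest protein-coding GENCODE vM21 transcript of each, 1.67% of the words of 36 bases of Tmem176b occur in transcripts of Tmem176a.

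RefSeq promoter windows were at hand for 6 of the 8 genes, 9 windows in all, and not for Blk and Serpinb1a. The window starts of Kcnk1 (chr8:125995102), Cd163l1 (chr7:140218267) and Tmem176b lie inside the RefSeq spans printed here, not at their 5′ ends. The ends of those spans were not searched. Searched on both strands, CTTTGAT was found in 2 of the 9, at the single overlapping place above, against 3.73% of all 32851 windows. TGTGGT for RUNX, TGANTCA for AP-1 and TTCNNNGAA for STAT factors were in none, against 16.8%, 7.81% and 8.30% of all windows. TATAAA was in 1 of the 9 and GGGCGG in 2, against 13.6% and 35.7%. These are matches of letters in 300 bases and say nothing on whether a factor binds there or elsewhere.

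Serpinb1a, which in its human form blocks neutrophil elastase and cathepsin G, had 308.7 and 439.2 FPKM on deficient diet, against 52.3 and 69.8 FPKM on normal diet. Its log2 difference of 2.59 ± 0.24 and its ratio of means of 6.13 were the largest of the 8. A close copy, Serpinb1b, had 75.1 and 107.2 FPKM on deficient diet and 12.6 and 17.3 FPKM on normal diet, and it rose in limma by 2.52 ± 0.25 on the log2 scale (adjusted p = 0.0323). The ratio of Serpinb1a to Serpinb1b was 4.11 and 4.10 in the deficient diet libraries and 4.14 and 4.04 in the normal diet libraries, which makes the pair the steadiest in the plot of ratios within libraries. Over their longest open reading frames of 1140 and 1149 bases in GENCODE vM21 the 2 genes are 89.9% identical. Their longest identical run, 81 bases in capitals below, is shown because a read lying wholly inside it could come from either gene.
Serpinb1a, coding bases 589 to 729: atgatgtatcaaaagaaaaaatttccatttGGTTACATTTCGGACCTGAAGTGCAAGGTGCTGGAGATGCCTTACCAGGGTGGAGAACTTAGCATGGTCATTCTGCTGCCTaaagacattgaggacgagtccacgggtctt
Serpinb1b, coding bases 589 to 729: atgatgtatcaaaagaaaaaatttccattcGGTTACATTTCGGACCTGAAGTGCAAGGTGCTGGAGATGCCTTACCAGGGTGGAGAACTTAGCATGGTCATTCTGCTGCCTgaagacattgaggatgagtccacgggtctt
Of the words of 36 bases in the Serpinb1b transcript, 5.96% also occur in Serpinb1a, and 91.1% of those of Serpinb1a and 92.8% of those of Serpinb1b occur in no other gene. How fragments that fit both were assigned is not given in the sources used here, and their part in the constant ratio was not tested. For the rest of the 8 genes the share of words found in no other gene was 93.5% for Kcnk1, 97.5% for Sdc1, 98.3% for Tmem176b, 98.7% for Aqp3, and every word of Blk, Cd163l1 and Tmem176a was found in no other gene.

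**Figure D1:**
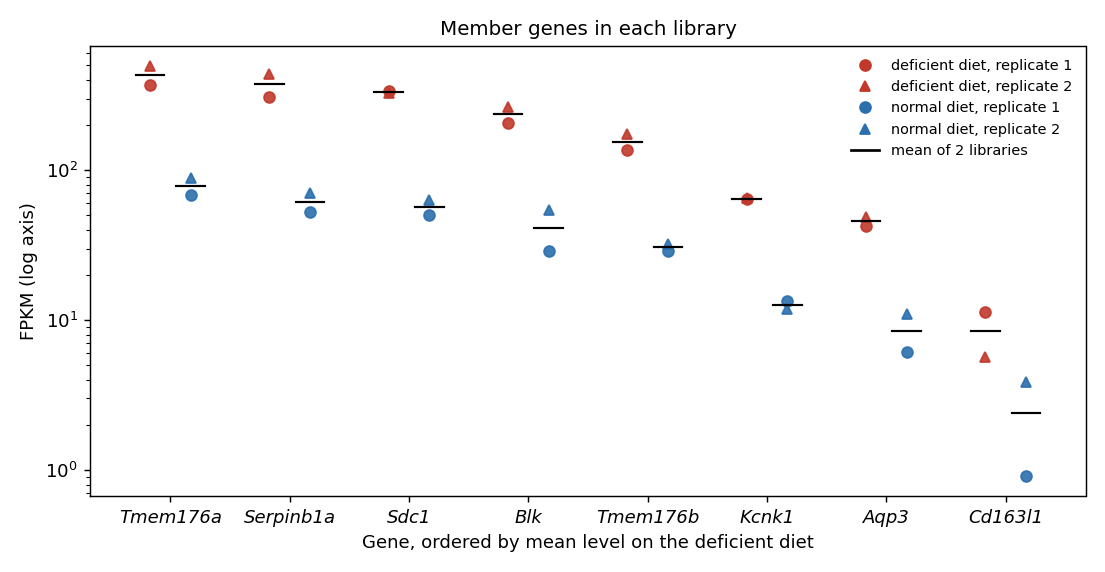
FPKM on a log axis for the 8 genes, with 1 point per library (circles replicate 1, triangles replicate 2), deficient diet in red left of normal diet in blue, and a black line at the mean of 2 libraries. Every red point lies above both blue points of its gene, closest for Cd163l1, where 5.69 FPKM stands above 3.88 FPKM.

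The order of the mean levels was the same in both diets, Tmem176a, Serpinb1a, Sdc1, Blk, Tmem176b, Kcnk1, Aqp3 and Cd163l1. On the deficient diet the range of Serpinb1a overlapped that of Tmem176a and that of Sdc1, while Tmem176a and Sdc1 were apart. Sdc1 stood above Serpinb1a in replicate 1 and below it in replicate 2. From Sdc1 down no gene overlapped the next. On the normal diet the range of each gene overlapped that of the next as far as Tmem176b, while Kcnk1, Aqp3 and Cd163l1 were apart. Within each normal diet library, though, the 8 genes stood in the order of their means. Set against the geometric mean of the T cell receptor chain genes Cd3d, Cd3e and Cd3g (189.4 and 234.9 FPKM on deficient diet, 247.1 and 189.4 FPKM on normal diet), Blk came to 108.8% and 112.7% in the deficient diet libraries and to 11.7% and 28.5% in the normal diet libraries. Kcnk1 came to 33.7% and 27.9% on deficient diet and to 5.45% and 6.26% on normal diet. With every library scaled on these CD3 chains, a setting chosen after seeing the data, the log2 differences of the 8 genes ran from 1.57 for Cd163l1 to 2.62 for Serpinb1a, and 5 of the 8 were called.

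Among all genes tested, the log2 differences of the 7 called members ranked between 18th and 38th from the top (18 for Serpinb1a, 38 for Kcnk1), and Cd163l1 ranked 163rd. The median over the 8 was 2.39, against 0.040 over all genes tested. The 7 lay between 2.27 and 2.59, a span of the same order as their standard errors of 0.16 to 0.33. Centred on its own mean over the 4 libraries, the log2 profile of Ppt2, a thioesterase of the lysosome, lay nearest to the mean profile of the 8, at a Euclidean distance of 0.067 log2 units. Ppt2 had 18.4 and 21.5 FPKM on deficient diet and 2.52 and 4.02 FPKM on normal diet. Next came Il17re, a receptor chain for interleukin 17C, at 0.12, Smox, the spermine oxidase, at 0.17, Smyd1, a methyltransferase gene best known from muscle, at 0.18, and Fhl2, a LIM domain protein, at 0.21. The members themselves lay at 0.18 (Aqp3) to 0.49 (Kcnk1) and, for Cd163l1, 1.19. With 4 libraries, likeness in profile rests mostly on the diet difference.

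How far other proteins of the same families moved was taken from 7 lists. Of 33 relatives tested, 2 rose and 4 fell, where 2.74% of all genes tested were called, 1.22% as higher and 1.53% as lower. The median log2 difference of the relatives was -0.50. Among the Src family kinases, 1 of 6 tested was called. Fyn, which with Lck starts signalling at the T cell receptor, fell to 8.58 and 5.51 FPKM on deficient diet, against 74.8 and 48.2 FPKM on normal diet (log2 difference -2.95 ± 0.31, limma adjusted p = 0.0325). Lck had 274.3 and 306.3 FPKM on deficient diet and 453.3 and 396.9 FPKM on normal diet and did not pass (limma adjusted p = 0.129). Blk thus stood at 0.752 and 0.864 of the Lck level in the deficient diet libraries, against 0.0635 and 0.136 in the normal diet libraries. Against Fyn it stood at 24.0 and 48.1 times the level on deficient diet and at 0.385 and 1.12 times on normal diet. Src itself, at 2.70 and 3.57 FPKM against 0.452 and 0.177 FPKM, had an adjusted p of 0.0594 in limma.

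In the MS4A family 2 of 8 tested genes fell and none rose. Ms4a4b, a membrane protein of T cells that modulates their activation, fell to 72.95 and 87.3 FPKM on deficient diet, against 483.4 and 324.8 FPKM on normal diet (-2.30 ± 0.24, limma adjusted p = 0.0323). Ms4a6b fell to 42.9 ± 1.57 FPKM on deficient diet, against 128.9 ± 18.3 FPKM on normal diet (SD, n = 2 each; limma adjusted p = 0.0323). Ms4a1, the B cell antigen CD20, and Ms4a4d had log2 differences of -1.65 and -1.17 and did not pass. The median of the 8 was -1.17, whereas Tmem176a and Tmem176b lay at 2.44 and 2.30.

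The scavenger receptor cysteine-rich proteins included 5830411N06Rik, also called Scart2, which lies next to Cd163l1 on chromosome 7 and is itself reported from gamma-delta T cells that make interleukin 17. It rose to 136.1 and 174.7 FPKM on deficient diet, against 28.7 and 38.2 FPKM on normal diet (log2 difference 2.19 ± 0.22, limma adjusted p = 0.0323). The ratio of 5830411N06Rik to Cd163l1 did not keep to a diet, at 12.1 and 30.7 on deficient diet and 31.3 and 9.85 on normal diet. Cd5 and Cd6, T cell surface proteins of the same group, had log2 differences of -0.39 and 0.14, and neither passed. Among clade B serpins, Serpinb6b fell to 50.95 ± 5.07 FPKM on deficient diet, against 134.3 ± 20.2 FPKM on normal diet (SD, n = 2 each; limma adjusted p = 0.0399), Serpinb1b rose as above, and 3 of 5 were not called. Serpinb6a and Serpinb6c had log2 differences of 0.35 and -0.90.

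For syndecans and glypicans (3 tested), potassium channels (4) and aquaporins (2) no relative passed. Sdc4 had 28.3 and 25.8 FPKM on deficient diet and 8.29 and 27.1 FPKM on normal diet, groups that overlapped, and Gpc1 6.83 and 6.13 FPKM against 31.1 and 14.7 FPKM (limma adjusted p = 0.102). Kcnk5, a two-pore channel like Kcnk1, had 20.8 and 22.3 FPKM on deficient diet and 44.6 and 21.3 FPKM on normal diet. The ratio of Kcnk1 to Kcnk5 was therefore 3.06 and 2.94 on deficient diet, against 0.302 and 0.558 on normal diet. Kcna3 and Kcnn4, the voltage-gated and calcium-activated channels of T cells, had log2 differences of -1.33 and 0.58. Aqp9, which like Aqp3 passes glycerol, stood at 6.44 and 3.23 FPKM on deficient diet and 35.9 and 22.3 FPKM on normal diet, and just missed the threshold (-2.39 ± 0.38, limma adjusted p = 0.0540). Aqp3 thus had 6.61 and 15.2 times the level of Aqp9 in the deficient diet libraries, against 0.17 and 0.491 times in the normal diet libraries. Aqp1, the other aquaporin tested, had 149.6 and 35.6 FPKM on deficient diet and 16.0 and 188.6 FPKM on normal diet, groups that overlapped. The ratio of Aqp1 to Aqp3 did not keep to a diet, at 3.51 and 0.729 on deficient diet and 2.63 and 17.2 on normal diet. No relative of the 33 was called without either deficient diet replicate or without normal diet replicate 1, and 9 were called without normal diet replicate 2. Adding Gpc1, Sdc4 and Aqp9 to the 6 above gives those 9.

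**Figure D2:**
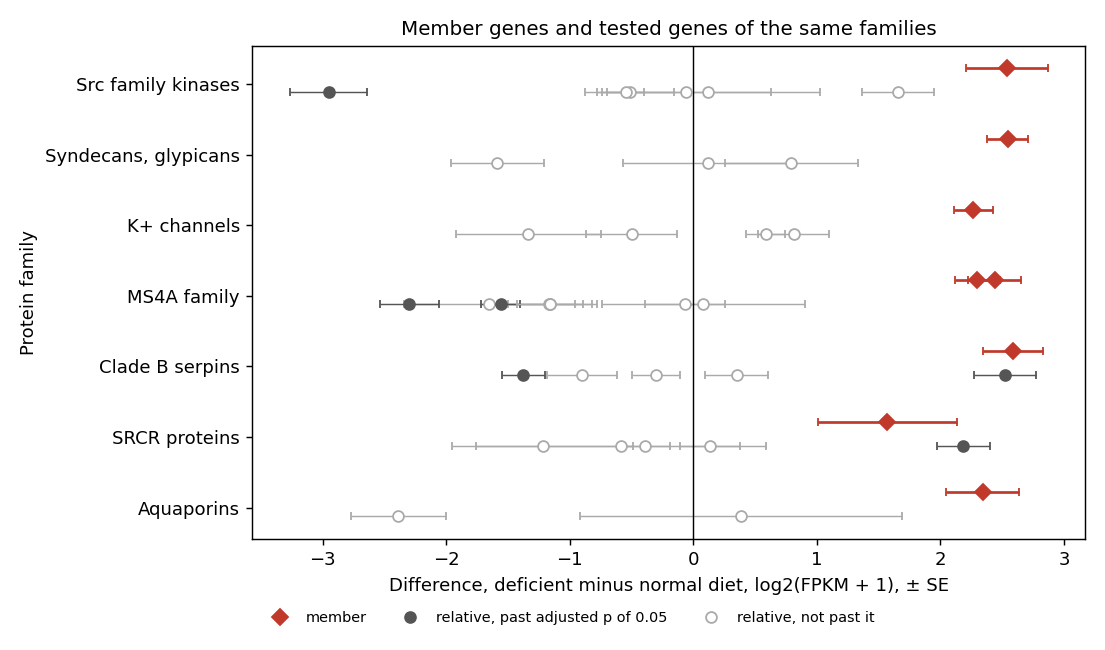
Log2 differences between the diets, deficient minus normal, on the log2(FPKM + 1) scale with their SE, for the 8 genes (red diamonds) and for the 33 tested relatives by protein family (circles, filled where the adjusted p was under 0.05). The members lie between 1.57 and 2.59, and of the relatives only Serpinb1b and 5830411N06Rik, at 2.52 and 2.19, are filled circles in that range.

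**Figure D3:**
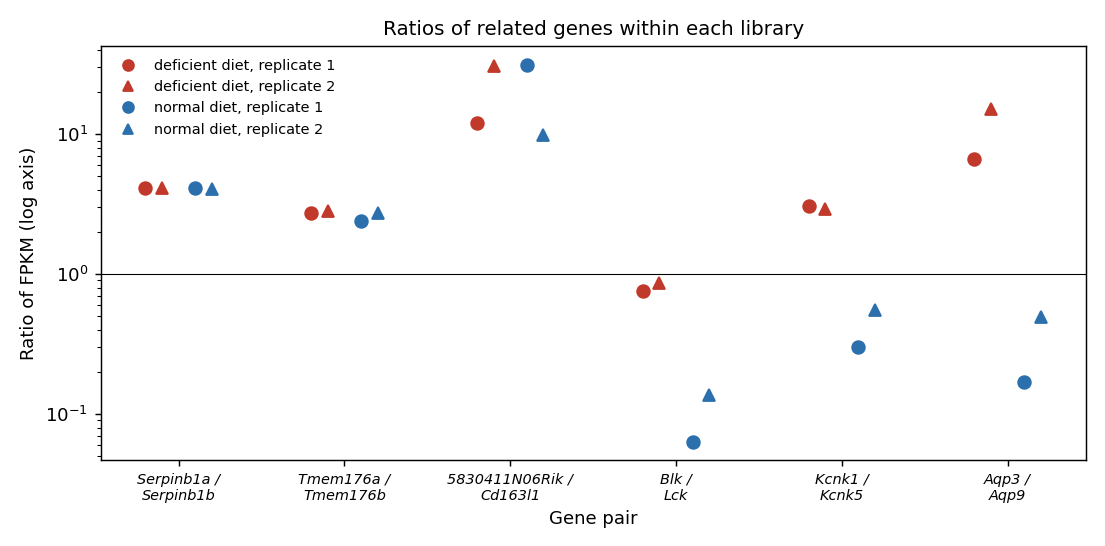
Ratio of FPKM of 2 related genes within each library, on a log axis, with the deficient diet in red left of the normal diet in blue. The ratio of Serpinb1a to Serpinb1b stays between 4.04 and 4.14 in the 4 libraries, whereas those of Blk to Lck, Kcnk1 to Kcnk5 and Aqp3 to Aqp9 are higher in both deficient diet libraries than in either normal diet library.

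A further list named 17 genes reported high in gamma-delta cells that make interleukin 17. Like the lists that follow, it was put together with results of these data known, so its counts are a description. In limma 3 of its 16 tested genes rose and none fell, with a median log2 difference of 1.22, and 13 of 16 were higher in both deficient diet libraries than in either normal diet library. Over all genes tested 1.22% were called higher, 1.53% were called lower and 30.7% were higher in both deficient diet libraries. Capg, an actin-capping protein, rose to 903.8 ± 96.6 FPKM on deficient diet, against 220.6 ± 71.7 FPKM on normal diet (SD, n = 2 each; limma adjusted p = 0.0399). Ltb4r1, the receptor for leukotriene B4, rose 3.58-fold by mean FPKM (limma adjusted p = 0.0399), and Amica1, a junctional adhesion protein, 2.46-fold (limma adjusted p = 0.0445). Krt83 had 5.34 and 8.03 FPKM on deficient diet and 0.0471 and 1.37 FPKM on normal diet and did not pass (adjusted p = 0.0832). Cd44, an adhesion receptor of activated T cells, differed by 0.29 log2 units. In a list of 11 regulators, cytokines and receptors of the type 17 program 5 rose, Il23r, Il1r1, Il17a, Ccr6 and Rora, by 2.66, 2.60, 2.58, 1.99 and 1.61 log2 units. Of 13 genes reported high in the gamma-delta cells that make interferon gamma instead, 7 fell and none rose, with a median of -1.53. Cd27, the receptor commonly used to separate the 2 kinds of cell, fell to 58.9 and 60.9 FPKM on deficient diet, against 127.0 and 150.5 FPKM on normal diet (limma adjusted p = 0.0399). Of the neutrophil proteases that Serpinb1a blocks, Elane was at 0 and 0.0503 FPKM on deficient diet and at 0.655 and 9.73 FPKM on normal diet, too low to be tested. Ctsc, the protease that activates them, differed by 0.0050 log2 units.

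Several of the 8 genes are also made by other cells of the liver, so markers of those cells are given beside them. No marker of B cells, plasma cells, macrophages, dendritic cells, neutrophils, hepatocytes or cholangiocytes was called in either direction. Tested were 7 B cell, 4 plasma cell, 10 macrophage, 8 dendritic cell, 5 neutrophil, 5 hepatocyte and 5 cholangiocyte markers. Of all genes tested only 2.74% were called, so nothing is read from the absence of calls among so few. The 8 B cell markers summed to 48.0 and 38.7 FPKM on deficient diet and to 29.2 and 117.8 FPKM on normal diet, and none was at 0. Cd79a, a chain of the B cell receptor, stood at 1.74 and 2.27 FPKM on deficient diet, against 2.50 and 13.95 FPKM on normal diet. Cd79b, its partner chain, overlapped between the diets, at 36.2 and 25.8 FPKM on deficient diet and 13.5 and 48.8 FPKM on normal diet. Of the 7 B cell markers tested, 1 was fitted higher on the deficient diet and 6 lower. The 6 plasma cell markers in the table summed to 30.5 and 31.3 FPKM on deficient diet and to 46.9 and 91.5 FPKM on normal diet, with Tnfrsf17 at 0 in all 4 libraries. The part of B cell RNA in the values of Blk, and of plasma cell RNA in those of Sdc1, was not tested. Hepatocyte markers summed to 71.3 and 36.5 FPKM on deficient diet and to 12 and 73.0 FPKM on normal diet. All 8 were in the table, with Ttr, Fgb and Apoc3 at 0 in some libraries, and the part of hepatocyte RNA in the values of Sdc1 was not tested either.

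Macrophage markers summed to 1328 and 713.5 FPKM on deficient diet and to 147.1 and 2098 FPKM on normal diet, dendritic cell markers to 2458 and 1009 against 356.1 and 1147 FPKM, and neutrophil markers to 277.4 and 301.6 against 62.4 and 756.8 FPKM. These 3 sums overlapped between the diets and were lowest in normal diet replicate 1, and Clec4f, Mpo and Camp were at 0 in some libraries. Every member except Kcnk1 was lowest in that library too. Most of the macrophage sum was Lyz2, at 1197 and 663 FPKM on deficient diet and 140 and 1934 FPKM on normal diet. Of 10 macrophage markers tested, 9 were fitted higher on the deficient diet and 1 lower (median log2 difference 0.82). For dendritic cells these were 6 and 2 (median 0.62), for neutrophils 4 and 1 (median 0.47). Marco did not overlap, at 4.52 and 2.10 FPKM on deficient diet and 0.359 and 0.238 FPKM on normal diet. Cd163l1 stood at 11.3 and 5.69 FPKM on deficient diet and at 0.916 and 3.88 FPKM on normal diet. The part of myeloid RNA in the values of Cd163l1 and of the other members was not tested. Markers of pancreatic acinar cells, which a liver sort should lack, summed to 707.4 and 264.9 FPKM on deficient diet and to 9299 and 2821 FPKM on normal diet, with Cela2a called as lower (limma adjusted p = 0.0365), and their part in the levels of the members was not tested. As for the sort itself, Cd3d, Cd3e and Cd3g were above 100 FPKM in every library. Cd4 was at 0.618 and 2.44 FPKM on deficient diet and at 3.86 and 4.11 FPKM on normal diet. Cd8a was at 0.836 and 1.42 FPKM on deficient diet and at 22.4 and 8.26 FPKM on normal diet. The other CD8 gene, Cd8b1, was at 13.39 and 13.97 FPKM on deficient diet and at 25.17 and 19.27 FPKM on normal diet. Klrb1c, the gene of NK1.1, was at 5.34 and 2.96 FPKM on deficient diet and at 18.3 and 13.8 FPKM on normal diet. None of the 8 genes of the sort was called, and with 2.74% of all genes tested called, nothing is read from this. Genes of the gamma-delta receptor itself were not analysed here, so the 8 genes are described as markers and not as a count of such cells.

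**Figure D4:**
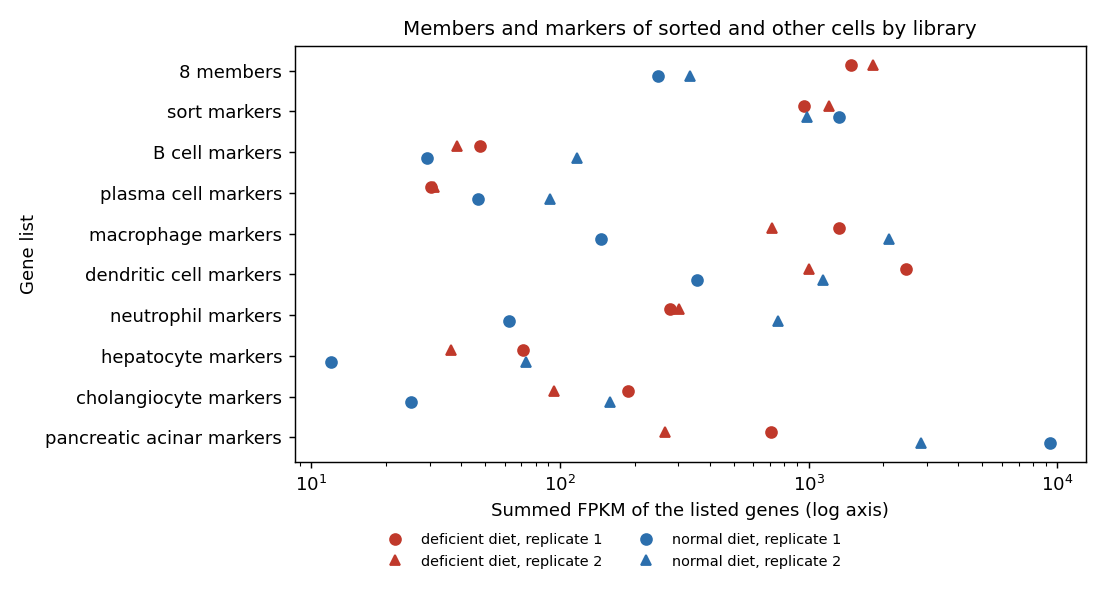
Summed FPKM (log axis) of the 8 genes and of marker lists for the sort and for other cells, with 1 point per library, deficient diet in red above normal diet in blue. The 8 genes sum to 1480 and 1817 FPKM on deficient diet, apart from 248.9 and 334.8 FPKM on normal diet. The plasma cell sums (30.5 and 31.3 against 46.9 and 91.5 FPKM) are also apart, lower on the deficient diet. So are the pancreatic acinar sums (707.4 and 264.9 against 9299 and 2821 FPKM). The sums of the sort, macrophage, dendritic cell, neutrophil, hepatocyte, cholangiocyte and B cell markers overlap between the diets.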

How the data were processed

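The data are 4 RNA sequencing libraries of sorted liver T cells. The labels' protocols name Trizol for extraction and an Illumina TruSeq kit for the libraries. Values were read as FPKM as deposited, because they are not whole and sum to between 370112 and 389403 per library; the unit is named nowhere, and TPM would only rescale each library. The submitters' processing notes list Bowtie 0.12.2 and mm8. Quantifier, annotation, use of strand and filters: not given in the sources used here. Values as small as 5.3e-262 FPKM are model estimates and not multiples of a read, so no counts were recovered, no count test was run, and depth, with the precision it gives, is unknown. The coordinates printed are those of RefSeq on GRCm38.p6.

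Diet was taken from the labels and columns from the titles. limma 3.58.1 in R 4.3.3 was fitted to log2(FPKM + 1) of the 10423 genes that reached 1 FPKM in 2 or more libraries (all 8 members do), with diet as the only factor, a mean-variance trend and Benjamini-Hochberg adjustment over all genes at 0.05. A pseudocount of 1 understates differences of low genes. The step was run on simulated libraries drawn independently of each other, so that run does not show its error rate on these data. The fit called 286 genes, 127 higher and 159 lower on the deficient diet. Pearson's r of log2 values across genes was 0.963 within the deficient and 0.938 within the normal diet, and 0.893 to 0.933 between them.

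The members and lists were chosen with earlier results of these data known. Text names all members, in each list called genes first and then the largest differences up to 4 (further called genes included), and the 5 genes nearest in profile; Cd6, Elane, Cd44, Cd79a and others given for their role were named outside that rule. Symbols for Scart1 and Scart2 were matched to Cd163l1 and 5830411N06Rik through RefSeq. Alternatives were other pseudocounts, filters and scalings, leaving out each library, a replicate block and limma without the trend.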

Additional observations from a re-analysis of the deposited data

How the results depend on the processing

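The median log2 difference of the 8 members was 2.39 and moved by less than the spread between libraries under all 15 alternatives, from 2.24 to 2.67 with 1 library left out and from 2.27 to 2.46 otherwise. Of 120 values of single members under alternatives none changed sign, and 2 moved by more than that spread (Kcnk1 at 1.98 and Aqp3 at 1.93, with a pseudocount of 5). Cd163l1 moved most in proportion, to 0.86 with that pseudocount, against 1.57 with 1, within its wider spread. Whether genes passed the threshold depended on the fit. The number of genes called, 286 in all, 7 of the members and 6 of the relatives, was 0, 0 and 0 without a filter, where 2768 genes had an unadjusted p under 0.05 in limma. With 1 library left out it ran from 0 to 352 for all genes, from 0 to 7 for members and from 0 to 9 for relatives. The lone library of a diet is then assumed to vary like those of the other diet. Quantile normalization gave 467 genes, and limma without the trend 141. With libraries scaled on the CD3 chains, added after seeing the data, 62 genes and 3 relatives were called. The cause of these shifts was not tested.

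Replicate numbers are shared between diets in the titles, and same-numbered libraries tended to deviate in opposite directions over genes (r = -0.284). With 2 libraries per diet, that correlation cannot decide whether same-numbered libraries were handled as pairs. With the replicate block 0 genes, 0 members and 0 relatives were called in limma, with 1844 genes at an unadjusted p under 0.05. Crossing the pairs, chosen after seeing the data, called 52 genes, 3 members and 1 relative. Depth is unknown, which limits what can be said of Cd163l1 and other genes near 1 FPKM.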
